A study of Mus musculus with 48 samples.

Results

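The lowest dose of dichloroacetic acid (DCA) was compared with the vehicle in frozen (FROZ) mouse liver, using 12 of the 48 TempO-Seq libraries of the series. These were the FROZ libraries of 6 vehicle controls (0 mg/kg-d, animals 3 to 8) and of 6 mice given 198 mg/kg-d (animals 49 to 54), taken by the dose and preservation in the sample records. All animals were male B6C3F1 mice aged 4 weeks that received DCA in drinking water for 6 days, at 0 g/L for the vehicle and at 1 g/L for the dose of 198 mg/kg-d, an intake that the study worked out from water consumption. The remaining mice received 313 or 427 mg/kg-d (2 and 3.5 g/L). From each liver, frozen tissue and formalin-fixed, paraffin-embedded (FFPE) tissue were stored for decades, and the study's methods name partly different lobes for the 2 kinds. The livers were sampled as mixed lobes, each library came from 1 animal, and no gene was altered in any group. In TempO-Seq a pair of detector oligos is ligated on its target transcript and counted, so a value rests on 1 short stretch of a transcript.

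DCA is formed when drinking water is chlorinated, and it is best known for blocking the pyruvate dehydrogenase kinases, which opens the way of pyruvate into mitochondrial oxidation. In the liver it is broken down by the enzyme GSTZ1, and prolonged exposure of mice is known to lead to liver tumours. Hepatocytes also make most complement and coagulation proteins of the plasma, and many of their genes follow feeding, glucocorticoids and the circadian clock.

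Levels are log2(CPM + 1), where CPM is the number of reads of a gene per 1000000 reads on the listed genes, and a change is the mean of the treated libraries minus the mean of the vehicle libraries on that scale, which understates the change of low genes. Each change was tested by limma over all 11275 genes of the FROZ table, with Benjamini-Hochberg adjustment (FDR). DEGs are genes that passed an FDR of 0.05 and changed more than 2-fold, and genes that passed the FDR at any size are called higher or lower. P-values measure the spread between animals within groups, taken over all 4 doses.

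The libraries of the 12 animals held 6.92 to 9.84 M reads on listed genes (1 M is 1000000), with a median of 9.11 M in the vehicle group and 7.79 M in the treated group. Hepatocyte markers (9 of 11 listed, Alb and Apoa1 among them) summed to 46697 to 54027 CPM in vehicle libraries and to 45602 to 61126 CPM in treated libraries. None of the markers of other cell types passed the test. These were Kupffer cells and macrophages (10 of 12 markers listed, 255 to 337 CPM in vehicle and 264 to 297 CPM in treated libraries), endothelial cells (10 of 10, 299.6 to 349.8 and 325 to 362 CPM), bile duct cells (3 of 6, 32.9 to 45.0 and 33.2 to 45.8 CPM), neutrophils (3 of 6, 3.54 to 6.69 and 3.82 to 6.92 CPM) and erythroid cells (6 of 6, 61.2 to 129.8 and 55.9 to 68.8 CPM). No adipocyte marker was listed. Some libraries stood apart in these sums. Vehicle animal 5 held 1780.3 CPM of the muscle actin Acta1, the only muscle marker listed, and 733 CPM of stellate cell and fibroblast markers (9 of 10 listed), against 3.01 to 81.8 CPM and 317 to 571 CPM in the other libraries. Treated animal 53 held 81.8 CPM of pancreas markers (4 of 6 listed), 30.2 CPM of T and NK cell markers (4 of 7) and 21.8 CPM of B cell markers (2 of 4), against at most 7.42, 6.06 and 2.80 CPM elsewhere. Counts are therefore also given without these 2 animals.

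The lowest dose changed few genes, and the leading changes were a fall of Lpin1 (an enzyme of triglyceride synthesis), Hspa1a (the inducible HSP70), Bhlhe40 (a repressor of the clock) and Fkbp5 (a glucocorticoid-induced co-chaperone) and a rise of Egr1 (an immediate early transcription factor) and Nr1d1 (the clock repressor REV-ERBα). There were 12 DEGs, or 0.106% of the genes tested, of which 7 were lower and 5 higher. At an FDR under 0.05 without a fold limit, 176 genes (1.56%) were called, so that 164 of the 176 changed less than 2-fold and 120 less than 1.5-fold. The median change among them was 0.49 on the log2 scale in either direction, a fold of 1.41. Of the called genes, 126 were higher (1.12% of genes tested) and 50 lower (0.443%). This split depends on the scaling. The median of all genes was 0.07 in the deposited values, and when libraries were rescaled by the median ratio of their genes it was near 0, where 124 genes (1.1%) were called, 29 higher and 95 lower. The share of higher genes among those called thus went from 71.6% to 23.4%. All 50 lower genes and 29 of the 126 higher genes were called under both scalings. Over all genes, the 6 treated libraries lay above the 6 vehicle libraries in 159 genes (1.41%) and below them in 54 genes (0.479%).

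**Figure D1:**
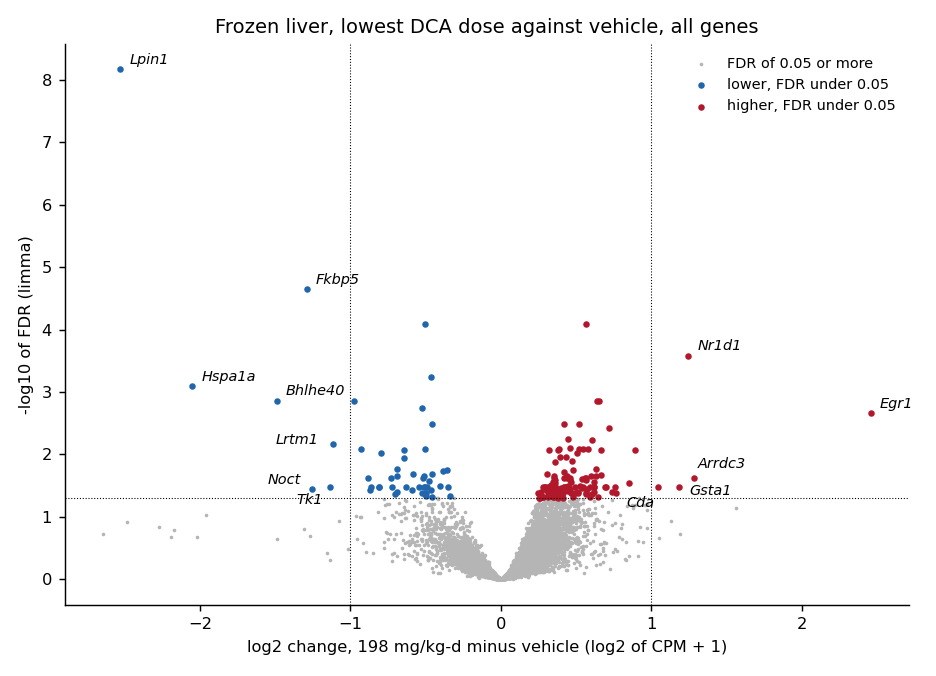
Change of each of 11275 genes at 198 mg/kg-d against vehicle in FROZ liver (horizontal axis, log2 of CPM + 1) and its significance (vertical axis, -log10 of the FDR by limma), with 6 animals in each group. Dotted lines mark a 2-fold change and an FDR of 0.05, and the 12 DEGs are named. Lpin1 has the lowest FDR (6.85e-09), and most coloured points lie between the 2-fold lines.

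Lpin1 encodes lipin 1, a phosphatidate phosphatase that makes diacylglycerol for triglyceride and phospholipid synthesis and also acts in the nucleus with PPARα and its coactivator. Its lowest, median and highest levels were 8.27, 8.68 and 9.58 in the vehicle libraries and 5.45, 6.27 and 6.76 in the treated libraries. All treated animals lay well below all controls, and the change was -2.53 ± 0.20 (log2, SE), a 5.77-fold lower value (FDR 6.85e-09). Lpin2, whose lipin is a second phosphatidate phosphatase of the liver, also fell, by 0.65 ± 0.13 on the log2 scale (FDR 0.0112). Its levels ran over 8.52, 8.88 and 9.17 in the vehicle group and 7.99, 8.17 and 8.54 in the treated group, and 1 treated animal reached into the range of the controls. The other lipin, Lpin3, was near the limit of detection in both groups (1.27 ± 0.22 and 1.32 ± 0.26, mean and SD) and did not pass the test (FDR 0.915). Lpin1 and Lpin2 were the only called genes of 17 listed genes of triglyceride synthesis and storage, whose median change was 0.01 against 0.07 for all genes.

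Hspa1a, the HSP70 chaperone that heat and other protein stress induce, had levels of 2.62, 3.37 and 4.17 (lowest, median and highest) in vehicle libraries and 0.61, 1.43 and 2.14 in treated libraries. The groups did not overlap, and the fall was 4.14-fold (-2.05 ± 0.31, FDR 0.000808). Of the 50-base windows of its transcripts, 60.3% also occur in other genes, most often in Hspa1b, and how far reads of this pair were mixed was not tested. No other gene among the 26 listed heat shock proteins was called (median change 0.06). Hspa1b itself was not listed, so nothing can be said of it. Hsp90aa1, an HSP90 that shares the heat shock response, changed by 0.23 ± 0.15 (FDR 0.450), and Dnajb1, an HSP40 partner of HSP70, by -0.24 ± 0.25 (FDR 0.680). These were chosen after their values were seen.

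Fkbp5 encodes FKBP51, which binds the glucocorticoid receptor with HSP90 and is induced by that receptor. Its levels were 7.52, 7.76 and 8.09 in vehicle libraries and 6.10, 6.37 and 7.03 in treated libraries (lowest, median and highest). Every treated animal was below every control, and the level was 2.44-fold lower (-1.29 ± 0.15, FDR 2.27e-05). It was the only called gene of 21 listed genes of the glucocorticoid receptor and its targets. Of these, 16 had a change below 0 (median -0.29), against 3877 of all 11275 genes. Among the others, chosen after their values were seen, the metallothionein Mt2 was lowest in change (-2.27 ± 0.83), but its treated libraries ran from 2.79 to 6.91 against 4.35 to 7.72 in the controls and it did not pass (FDR 0.146). Tsc22d3, the glucocorticoid-induced leucine zipper GILZ, changed by -0.50 ± 0.23 (FDR 0.262) and Sgk1, a glucocorticoid-induced kinase, by -0.39 ± 0.24 (FDR 0.425).

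Several genes of the circadian clock moved in opposite directions. Bhlhe40 (DEC1) represses transcription by the CLOCK and BMAL1 pair, and its levels were 6.92, 7.62 and 8.30 in vehicle and 5.90, 6.16 and 6.38 in treated libraries. All treated libraries were lower, by 2.81-fold (-1.49 ± 0.24, FDR 0.00137). Noct encodes nocturnin, a phosphatase of NADPH with rhythmic expression, and was 2.39-fold lower (-1.26 ± 0.31, FDR 0.0358). Its controls spread widely (1.33, 2.21 and 3.46) and overlapped the treated animals (0.48, 1.05 and 1.60). Nr1d1 and Nr1d2 encode the repressors REV-ERBα and REV-ERBβ, and both rose without overlap of the groups. Nr1d1 levels were 1.17, 1.56 and 2.32 in vehicle and 2.60, 2.84 and 3.42 in treated libraries, 2.37-fold higher (change 1.24 ± 0.17, FDR 0.000261). The change of Nr1d2 was 0.89 ± 0.17 (FDR 0.00858). Of 18 listed core clock genes, 2 were called higher and 1 lower (median change near 0), and of 13 listed clock output genes 1 was lower (median -0.21). Per1 and Per2 were not listed, so nothing can be said of them. Arntl, which encodes BMAL1, and Dbp, a target of the clock, were chosen after their values were seen and changed by -0.08 ± 0.26 (FDR 0.918) and 0.11 ± 0.44 (FDR 0.933). The time of day at which the livers were taken is not given in the sources used here.

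Egr1 encodes a zinc finger transcription factor that growth factors and stress induce within minutes. It was near the limit of detection in the vehicle libraries (0.15, 0.97 and 1.59) and reached 1.49, 3.78 and 4.56 in the treated libraries (lowest, median and highest). A rise was seen in 5 of 6 treated animals, while animal 54 lay inside the range of the controls, and the change was 2.46 ± 0.41 (FDR 0.00221), 5.48-fold. The gene had 1 to 16 reads in each vehicle library, so the control level has a large counting error. The other 24 of 25 listed immediate early genes did not pass the test, among them Fos (0.44 ± 0.16 in vehicle and 0.56 ± 0.31 in treated libraries) and Jun (0.37 ± 0.23, FDR 0.438), chosen after their values were seen. Arrdc3, an α-arrestin that controls β-adrenergic receptors, rose 2.44-fold (FDR 0.0243), from levels of 4.86, 5.75 and 5.98 to 5.82, 6.98 and 7.63, with 1 treated animal inside the range of the controls.

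Promoters of 3 genes that fell without overlap of the groups are shown because the 3 genes differ in what is known to induce them. The 250 bases before the RefSeq start (GRCm38.p6) were searched on both strands for the heat shock element core GAANNTTC, the E-box CACGTG that clock factors bind, and the cyclic AMP element TGACGTCA, and matches are in capitals. In Hspa1a (chr17:34972157-34972406, minus strand) the capitals mark a heat shock element core that begins 104 bases before the start, and in Fkbp5 (chr17:28486150-28486399, minus strand) an E-box that begins 169 bases before it. The bases before the listed Lpin1 start (chr12:16610967-16611216, minus strand) had none of these motifs. This start lies inside the gene (chr12:16535669-16653903), so the bases before the outer end of Lpin1 were not searched.
Hspa1a: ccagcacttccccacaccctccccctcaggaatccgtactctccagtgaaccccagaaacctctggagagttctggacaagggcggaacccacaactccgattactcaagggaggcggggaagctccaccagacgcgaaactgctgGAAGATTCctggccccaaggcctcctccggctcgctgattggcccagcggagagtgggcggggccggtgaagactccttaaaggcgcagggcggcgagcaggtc
Fkbp5: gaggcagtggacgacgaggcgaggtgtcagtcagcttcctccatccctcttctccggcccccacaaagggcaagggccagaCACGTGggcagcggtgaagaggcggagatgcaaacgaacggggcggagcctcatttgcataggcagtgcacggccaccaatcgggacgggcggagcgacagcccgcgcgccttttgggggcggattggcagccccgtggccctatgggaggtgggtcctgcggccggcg
Lpin1: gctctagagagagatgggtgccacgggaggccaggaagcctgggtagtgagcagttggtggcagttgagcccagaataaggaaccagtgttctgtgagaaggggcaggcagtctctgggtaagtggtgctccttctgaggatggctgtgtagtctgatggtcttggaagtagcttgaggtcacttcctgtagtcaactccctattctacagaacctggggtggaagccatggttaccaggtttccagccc
A promoter was found for 136 of the 176 called genes. The E-box was present in 10 of 100 higher and 2 of 36 lower genes, against 9.88% of 8975 listed genes with a promoter. The cyclic AMP element was present in 7 of 100 higher and 0 of 36 lower genes against 2.97%, and the heat shock element core in 5 of 100 higher and 5 of 36 lower genes against 6.38%. A match is a description of the letters and shows no binding.

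The remaining DEGs were Tk1, Lrtm1, Gsta1 and Cda. Tk1, the thymidine kinase that cycling cells use to salvage thymidine, fell by 1.14 ± 0.28 (FDR 0.0337) from levels of 4.04, 4.95 and 5.70 to 3.37, 3.78 and 4.06, and the groups overlapped. It was the only called gene of 31 listed cell cycle and DNA replication genes, whose median change was 0.18. Lrtm1, a leucine-rich repeat membrane protein, fell by 1.12 ± 0.21 (FDR 0.00693), with overlap between the groups. Gsta1, a glutathione transferase of the Nrf2 response, was low in all libraries but lay above all controls in the treated group (1.00, 1.83 and 2.06 in vehicle and 2.23, 2.75 and 3.99 in treated libraries). Its change was 1.18 ± 0.29 (FDR 0.0337), and 90.5% of its 50-base windows occur in other genes. It was the only called gene of 29 listed Nrf2 genes, which had a median change of 0.25. Cda, the cytidine deaminase of pyrimidine salvage, changed by 1.04 ± 0.25 (FDR 0.0337, 0.0554 under median-ratio scaling), and its groups overlapped.

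**Figure D2:**
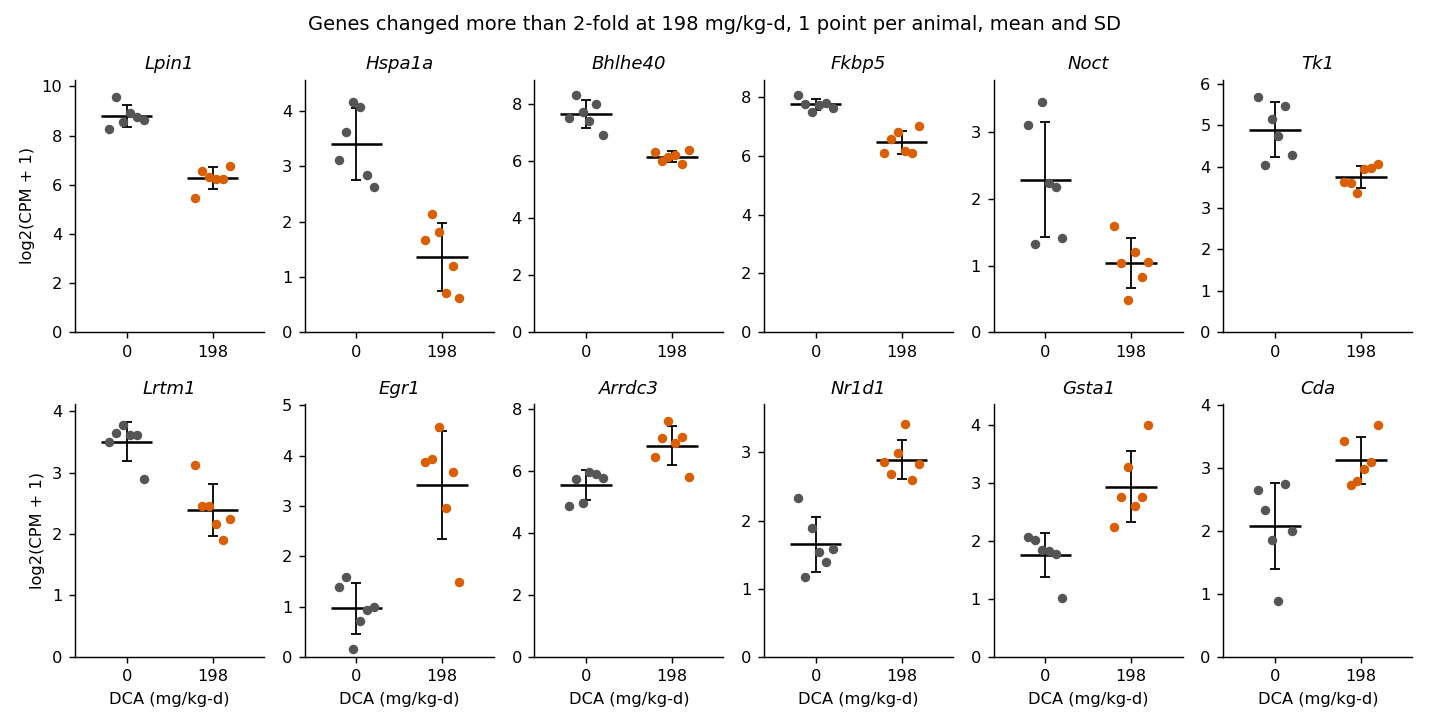
Levels of the 12 DEGs in FROZ liver, as log2(CPM + 1) on the vertical axis, for vehicle (0) and 198 mg/kg-d. Each point is 1 animal, and bars give the mean and SD of 6 animals. Lpin1, Hspa1a, Bhlhe40, Fkbp5, Nr1d1 and Gsta1 show no overlap of the groups, while 1 treated animal has an Egr1 level within the control range.

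These 12 genes differed in how far they rested on single animals. Lpin1, Hspa1a, Bhlhe40, Fkbp5, Egr1 and Nr1d1 had an FDR under 0.05 in all 21 alternatives, and Lrtm1 in 20, with an FDR of 0.0738 when 0.1 CPM replaced the offset of 1. Of the other 5, Cda, Gsta1 and Noct lost the call with an offset of 4 CPM, and Gsta1, Noct and Tk1 without a variance trend. All 5, Arrdc3 among them, lost the call when single animals were left out. These animals were 3, 5, 6, 7, 49, 50, 51, 52 or 53 for Tk1 (FDR up to 0.0801), 3, 5, 6, 7, 50, 51, 52, 53 or 54 for Noct (up to 0.0840), 4, 5, 6, 7, 8, 51, 52, 53 or 54 for Gsta1 (up to 0.0732), 4, 5, 6, 8, 49, 52, 53 or 54 for Cda (up to 0.0792) and 3, 5, 52 or 53 for Arrdc3 (up to 0.0650). Without both vehicle animal 5 and treated animal 53, 55 genes were called, and 53 of these were among the 176.

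Complement and coagulation was the list with the most called genes. Of its 31 genes, all listed, 9 were lower and none higher. A change below 0 was seen in 26 of them, against 3877 of all 11275 genes. The median was -0.16 against 0.07 for all genes. In 8 of the 31 all treated libraries lay below all vehicle libraries, which was so for 0.479% of all genes. C3, the central protein of all complement pathways, had levels of 11.72, 11.82 and 12.10 in vehicle and 10.81, 11.25 and 11.38 in treated libraries, without overlap, and changed by -0.69 ± 0.15 (FDR 0.0168). C4b, the C4 protein of the classical and lectin pathways, changed by -0.97 ± 0.16 (FDR 0.00137), from 5.73, 6.30 and 6.46 to 4.97, 5.28 and 5.51, again without overlap, and 34.6% of its 50-base windows occur in other genes, most often in C4a. Cfb, the protease of the alternative pathway, changed by -0.51 ± 0.11 (FDR 0.0222), with 73.0% of windows in other genes, most often in Gm20547. Cfi, the protease that inactivates C3b, fell as well. It changed by -0.52 ± 0.09 (FDR 0.00182), and its SD was 0.06 in vehicle and 0.09 in treated animals. C9 (-0.47 ± 0.18, FDR 0.181) and C6 (0.04 ± 0.23, FDR 0.960), late components of the membrane attack complex chosen after their values were seen, did not pass.

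The coagulation genes that fell were F5 (-0.93 ± 0.18, FDR 0.00827), F9 (-0.46 ± 0.12, FDR 0.0473), F12 (-0.46 ± 0.08, FDR 0.00326) and Pros1 (-0.41 ± 0.10, FDR 0.0316). F5 is the cofactor of the prothrombin-cleaving enzyme, F9 and F12 are proteases of the intrinsic pathway, and Pros1 encodes the anticoagulant protein S. Prothrombin itself (F2, -0.41 ± 0.12, FDR 0.0848) and plasminogen (Plg, -0.31 ± 0.08, FDR 0.0505) had all treated libraries below the controls but missed the threshold, and both were called under median-ratio scaling, which gave 11 lower genes. The count ran from 4 to 11 over the alternatives. The lowest counts were 4 without treated animal 53 and 5 without treated animal 52, and without animals 5 and 53 together it was 5 (C4b, F5, Cfi, Cfb and F12). In bulk liver, fewer cells of a type and less RNA per cell cannot be told apart.

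**Figure D3:**
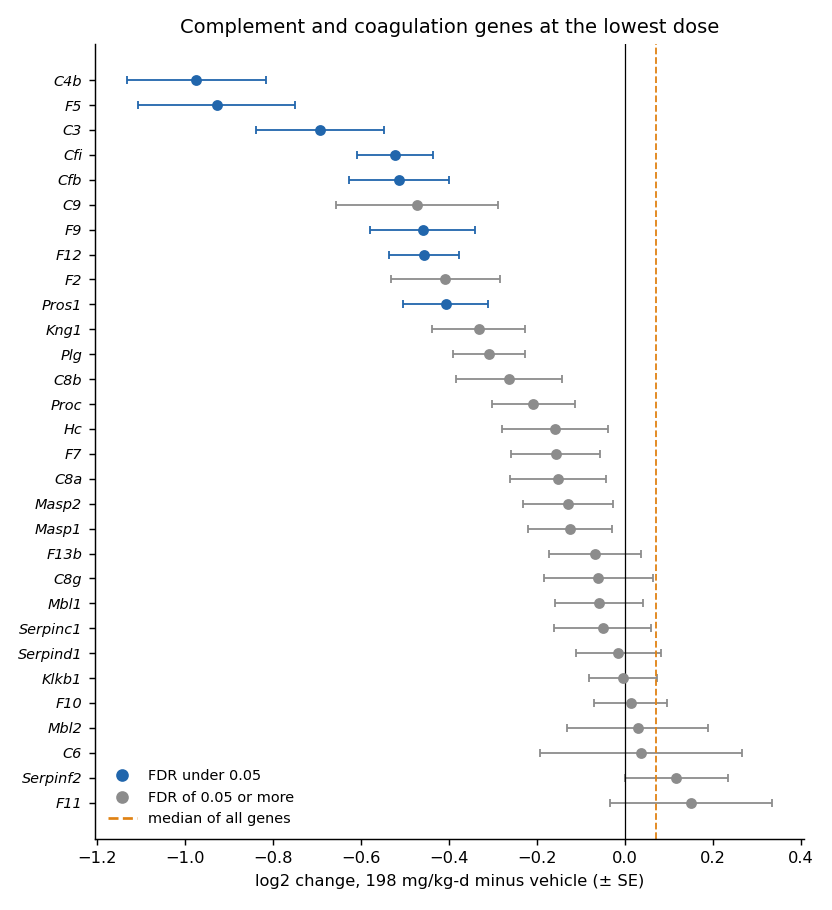
Change of 30 of the 31 complement and coagulation genes at 198 mg/kg-d against vehicle in FROZ liver (horizontal axis, log2, ± SE of the limma fit). Blue points have an FDR under 0.05, and the dashed line is the median of all genes. C4b and F5 have the largest falls of the list, and 25 of the 30 genes lie below 0.

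Of the genes that the naming rule took for their size, Itih1, a heavy chain of the inter-α-trypsin inhibitors, had levels of 9.80, 9.92 and 10.03 in vehicle and 8.50, 9.17 and 9.44 in treated libraries (-0.80 ± 0.16, FDR 0.00950). Hgfac, the protease that activates hepatocyte growth factor, changed by -0.65 ± 0.13 (FDR 0.00844), and the groups did not overlap in either gene. C2, the protease partner of C4, changed by -0.52 ± 0.11 (FDR 0.0238), the protease inhibitor Pzp by -0.50 ± 0.10 (FDR 0.00827), Mst1 (macrophage-stimulating protein) by -0.39 ± 0.08 (FDR 0.0181) and Ggcx, the carboxylase that vitamin K-dependent clotting factors need, by -0.34 ± 0.09 (FDR 0.0465). These 4 were chosen after their values were seen, and in each the treated libraries lay below all controls. Of the C2 windows 38.7% occur in other genes, most often in Gm20547, as for Cfb. In the acute phase list none of 24 listed genes was called, while 19 had a change below 0 (median -0.17), against 3877 of all 11275 genes. Whether this list differed from complement and coagulation was not tested. Its smallest p belonged to Itih3 (-0.58 ± 0.17, FDR 0.0679).

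Lipid transport and metabolism gave single called genes. Apoc2, the activator of lipoprotein lipase, rose by 0.56 ± 0.07 (FDR 8.18e-05) from 6.93, 7.06 and 7.21 to 7.46, 7.66 and 7.80, with no overlap, though 78.3% of its windows are shared with other genes. Lrp1, a receptor for lipoprotein remnants, fell by 0.47 ± 0.07 (FDR 0.000569). These were the called members of 22 listed apolipoprotein genes (median 0.04). Nr1h4, which encodes the bile acid receptor FXR, rose by 0.36 ± 0.08 (FDR 0.0337) and was the only called gene among 24 nuclear receptors (median 0.03) and among 23 bile acid genes (median 0.05), but not under median-ratio scaling (FDR 0.192). No gene was called among 20 of fatty acid synthesis (median 0.01), where Scd1, the stearoyl-CoA desaturase, had the smallest p (0.89 ± 0.25, FDR 0.0653). None was called among 24 of cholesterol synthesis and LDL uptake (median -0.20), where Fdps, the farnesyl diphosphate synthase, was first (-0.48 ± 0.13, FDR 0.0614) and passed under median-ratio scaling (FDR 0.0466).

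Few of the listed genes closest to the known target of DCA were called. Of 18 listed genes of pyruvate dehydrogenase, its kinases and pyruvate handling, only Slc16a7, the monocarboxylate carrier MCT2 that carries pyruvate and lactate, was called (-0.50 ± 0.13, FDR 0.0424), and the median was near 0. The kinase genes Pdk1 and Pdk2 were not listed, so nothing can be said of them. Pdk3 (-0.01 ± 0.18, FDR 0.988) and Pdk4 (-0.64 ± 0.43, FDR 0.468) did not pass. Pdk3 was near the limit of detection, with a mean of 1.19 in vehicle libraries. Gstz1 changed by 0.18 ± 0.09 (FDR 0.323), and none of 8 genes of tyrosine breakdown, to which GSTZ1 belongs, was called (median -0.04), with Pcbd1, which recycles the cofactor of phenylalanine hydroxylase, first at an FDR of 0.130. Pdk3, Pdk4 and Gstz1 were chosen after their values were seen. Of 24 genes of glucose production, glycolysis and glycogen, Foxo1, a transcription factor that insulin inactivates, was lower (-0.50 ± 0.13, FDR 0.0409), and all its treated libraries lay below the controls. The median of that list was -0.13. Over the 21 alternatives Foxo1 was called in 11 (FDR up to 0.159) and Slc16a7 in 9 (up to 0.139). Pck1, the gatekeeper of gluconeogenesis, did not pass (-0.70 ± 0.21, FDR 0.0825). Of 20 insulin signalling genes, Trib1, a pseudokinase that lowers plasma lipids, was higher (0.60 ± 0.13, FDR 0.0219, 0.0554 under median-ratio scaling), with a median of 0.12 for the list.

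PPARα targets, which DCA is known to induce in rodents, held no called gene at this dose. Of 29 listed targets 23 had a change above 0, against 7398 of all 11275 genes, and the median was 0.23 (0.14 under median-ratio scaling). The smallest p was a fall of Angptl4, an inhibitor of lipoprotein lipase (-0.74 ± 0.21, FDR 0.0634), whose treated libraries all lay below the controls. Angptl4 passed in 3 of 21 alternatives, median-ratio scaling among them (FDR 0.0486), and its FDR ran from 0.0034 to 0.119 over the 21. Cyp4a14 and Cyp4a10, fatty acid hydroxylases and classic PPARα targets, changed by 0.81 ± 0.35 (FDR 0.227) and 0.74 ± 0.41 (FDR 0.369), and Acot1, an acyl-CoA thioesterase, by 0.44 ± 0.38 (FDR 0.584). These 3 were chosen after their values were seen. For Acot1 the study reported a significant rise at this dose in FROZ TempO-Seq, by a rank sum test. The SE given here pools all doses. The SD of Acot1 was 0.37 in vehicle, 0.26 at 198 and 1.33 at 313 mg/kg-d. For Angptl4 the SD was 0.19 in vehicle, 0.22 at 198 and 0.75 at 313 mg/kg-d. At 313 and 427 mg/kg-d, measured against the same controls, the list medians were 1.53 and 1.90. None of 19 genes of mitochondrial β-oxidation was called either (median 0.05), with Etfb, a subunit of the electron transfer flavoprotein, first (0.29 ± 0.09, FDR 0.110).

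Small increases of mitochondrial genes depended on the scaling. A change above 0 was seen in 7398 of all 11275 genes. Of 72 mitochondrial ribosomal proteins 64 had a change above 0 (median 0.20), against 53 under median-ratio scaling, and Mrps18b, Mrpl45, Mrps28 and Mrpl35 were higher. Mrps18b rose by 0.65 ± 0.11 (FDR 0.00137) and kept its call under median-ratio scaling (FDR 0.00403), where the list median was 0.11, while the others, with changes of 0.32, 0.32 and 0.31, did not. Of 72 subunits of the respiratory chain and ATP synthase 67 were above 0 (median 0.14), against 53 under median-ratio scaling (median 0.06), and the complex I subunits Ndufa12 (0.36 ± 0.07, FDR 0.0130) and Ndufs3 (0.29 ± 0.07, FDR 0.0337) were called, neither of them under median-ratio scaling (FDR 0.0672 and 0.196). Of 62 cytosolic ribosomal proteins, Rps27l, a p53-induced relative of Rps27, was higher (0.46 ± 0.09, FDR 0.00794, median 0.10), also under median-ratio scaling (FDR 0.0193). Trp53 itself (0.57 ± 0.13, FDR 0.0261) and Aen, an apoptotic nuclease that p53 induces (0.42 ± 0.09, FDR 0.0243), were the called genes of 20 p53 and growth arrest genes (median 0.13) and lost the call under median-ratio scaling (FDR 0.0516 and 0.107). None of 33 proteasome subunits was called (median 0.07), with Psmd5, an assembly chaperone of the proteasome, first at an FDR of 0.0852.

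Among the remaining lists, Slc7a2, a carrier of cationic amino acids, was lower (-0.55 ± 0.13, FDR 0.0337) out of 31 urea cycle and amino acid genes (median -0.02), and Slc1a2, a glutamate carrier of pericentral hepatocytes, was lower (-0.46 ± 0.10, FDR 0.0204) out of 18 pericentral genes (median -0.07). No gene was called among 16 periportal genes (median 0.02), 28 of ER and amino acid stress (median -0.26), 33 interferon-stimulated genes (median -0.09), 21 of growth hormone signalling and male bias (median 0.15), 14 female-biased genes (median -0.16) and 22 targets of CAR and PXR (median -0.12). The smallest p of the stress list was that of Herpud1, a factor of ER protein disposal (-0.76 ± 0.21, FDR 0.0634), which passed under median-ratio scaling (FDR 0.0480). In the other lists without a call, the first genes were Pck1 (periportal), Ifi27 (FDR 0.122), Mup20 (FDR 0.116), Cyp17a1 (FDR 0.159) and Slco1a4 (FDR 0.102). In 13 of the 34 lists no gene was called.

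**Figure D4:**
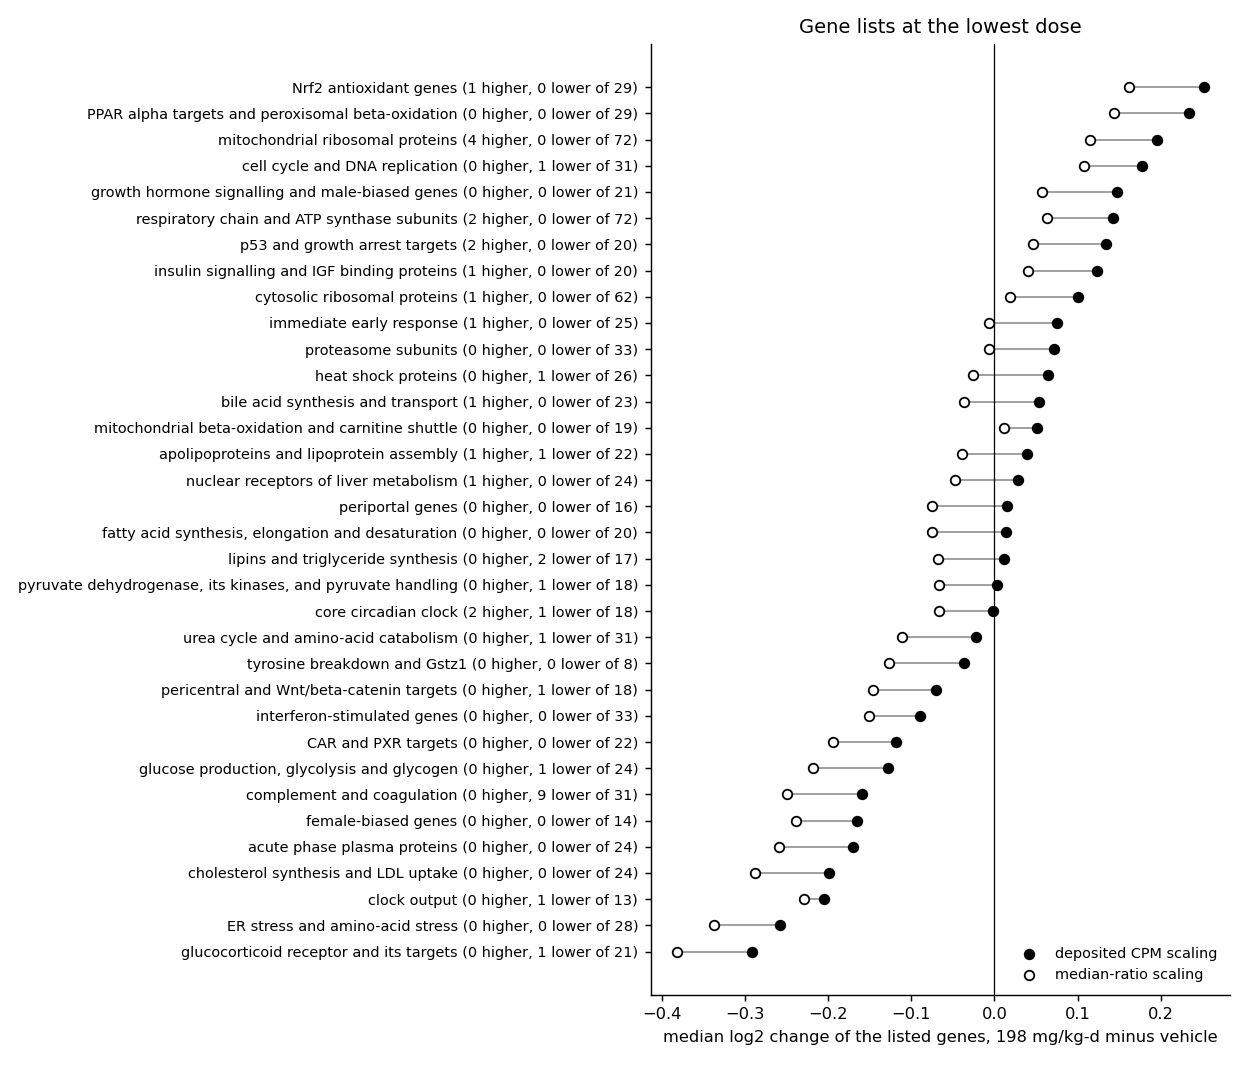
Median change of the listed genes of 34 gene lists at 198 mg/kg-d against vehicle in FROZ liver (horizontal axis, log2), under the deposited CPM scaling (filled) and median-ratio scaling (open). Labels give the genes called higher and lower of those listed under the deposited scaling. Complement and coagulation had 9 lower genes, and rescaling moved the list medians to lower values.

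The naming rule also took genes outside these lists for the size of a change without overlap of the groups. Hsd17b2, which oxidises estradiol and testosterone, rose by 0.66 ± 0.13 (FDR 0.00848), and Adh4, an alcohol dehydrogenase of retinol and alcohol metabolism, by 0.64 ± 0.10 (FDR 0.00137). The scaffold protein gene Sh3pxd2a (0.72 ± 0.13, FDR 0.00372) and Katnal2, which belongs to the katanin family (0.63 ± 0.13, FDR 0.0172), were higher too, as were the semaphorin receptor Plxna2 (0.76 ± 0.18, FDR 0.0337) and the ISG15-conjugating enzyme Ube2l6 (0.62 ± 0.16, FDR 0.0400). Plxna2 and Ube2l6 lost the call under median-ratio scaling (FDR 0.0510 and 0.0850). Lower genes were Ttll8, of the tubulin tyrosine ligase family (-0.81 ± 0.19, FDR 0.0337), the amylase Amy1 (-0.59 ± 0.15, FDR 0.0366) and the nuclear protein gene Banp (-0.59 ± 0.13, FDR 0.0208). Katnal2 and Ttll8 were near the limit of detection. Mean vehicle and treated values were 0.26 and 0.95 CPM for Katnal2 and 1.96 and 0.66 CPM for Ttll8. The change of Katnal2 ran from 0.22 to 1.76 over the 20 alternatives that kept it. Ttll8, Amy1 and Plxna2 passed in 11 of 21 alternatives and Ube2l6 in 9. Amy1 was lower in all 6 treated animals, and was lowest (6.98) in animal 53, the library with pancreas transcripts. Man2b1, a lysosomal mannosidase chosen after its values were seen, had an SD of 0.09 in vehicle and 0.04 in treated libraries and a change of -0.50 ± 0.07 (FDR 8.18e-05).

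Values at the higher doses are given side by side, since these comparisons share the controls, and a contrast of 427 with 198 mg/kg-d shares the treated libraries described here. In that contrast 1871 genes (16.6%) had an FDR under 0.05. Lpin1 stayed low, at 5.90 ± 0.23 and 6.15 ± 0.37 (mean and SD, n = 6) at 313 and 427 mg/kg-d against 6.26 ± 0.45 at 198 mg/kg-d (427 minus 198, FDR 0.798). Lpin2 was lower at 198 mg/kg-d and above the controls at the higher doses, with 8.86 ± 0.22 in vehicle, 8.21 ± 0.18 at 198, 9.40 ± 0.34 at 313 and 10.57 ± 0.19 at 427 mg/kg-d, and the difference between 427 and 198 was 2.36 ± 0.13 (FDR 7.24e-13). The 2 lipins were thus both low at the lowest dose and far apart at the highest.

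Bhlhe40 and Noct were lowest at the lowest dose. Bhlhe40 was 7.64 ± 0.49 in vehicle, 6.15 ± 0.19 at 198, 7.43 ± 0.34 at 313 and 7.19 ± 0.70 at 427 mg/kg-d (427 minus 198, 1.04 ± 0.24, FDR 0.00255). For Noct the means at 313 and 427 mg/kg-d were 1.98 ± 0.42 and 2.43 ± 0.59 (FDR 0.00190). The same was found for St3gal5, the synthase of the ganglioside GM3 (1.48 ± 0.17, FDR 4.45e-07), and, with higher levels at 198 than at 427 mg/kg-d, for Hsd17b2 (-0.88 ± 0.13, FDR 1.46e-05), Plxna2 (-0.86 ± 0.18, FDR 0.00128) and Acvr1, an activin receptor kinase (-0.44 ± 0.10, FDR 0.00262). St3gal5 and Acvr1 were chosen after their values were seen. These genes were picked with their values at 198 mg/kg-d known. Other genes went on with dose. Nr1d1 reached 4.86 ± 0.28 at 427 mg/kg-d (FDR 5.5e-09), Gsta1 6.53 ± 0.45 (FDR 7.15e-10) and Cyp4a14 9.42 ± 0.42 (FDR 5.71e-15), and Lrtm1 fell on to 0.51 ± 0.28 (FDR 2.03e-07). C4b (-1.09 ± 0.16, FDR 1.03e-05), Cfi (-0.77 ± 0.09, FDR 2.21e-07) and Cfb (-0.78 ± 0.11, FDR 1.19e-05) were lower again at 427 mg/kg-d, whereas C3 (-0.36 ± 0.15, FDR 0.0954) and F9 (-0.29 ± 0.12, FDR 0.0979) did not pass. Fkbp5 (6.70 ± 0.30 and 6.94 ± 0.20) and Hspa1a (1.25 ± 0.62 and 1.85 ± 0.51) stayed below the vehicle means of 7.76 ± 0.19 and 3.41 ± 0.65, with Fkbp5 higher at 427 than at 198 mg/kg-d (FDR 0.0318).

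**Figure D5:**
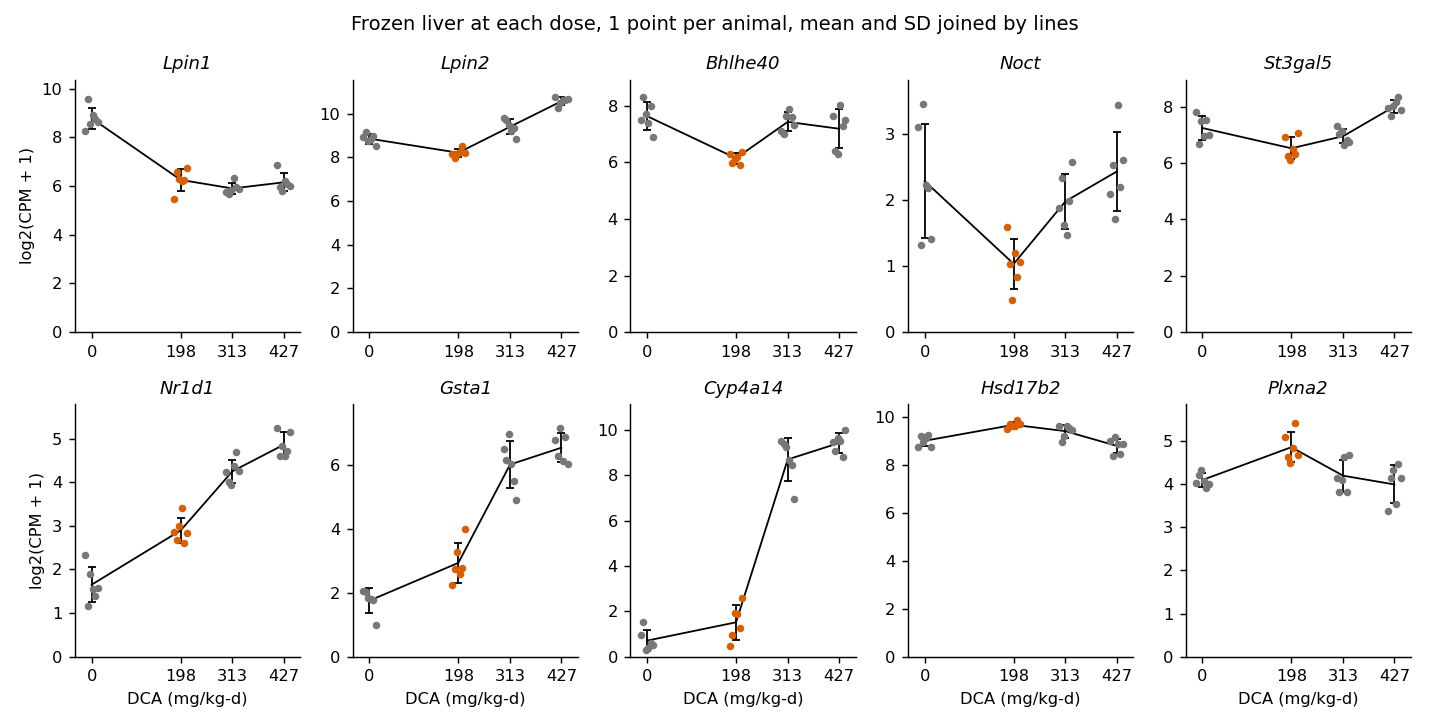
Levels of 10 genes in FROZ liver, as log2(CPM + 1) on the vertical axis, against DCA dose (mg/kg-d, horizontal axis), with 1 point per animal and the mean and SD of 6 animals. The animals at 198 mg/kg-d are in orange. Lpin1 falls at the lowest dose and stays low, Lpin2, Bhlhe40, Noct and St3gal5 have their lowest mean at 198 mg/kg-d, and Cyp4a14 differs little from vehicle at that dose.

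FFPE tissue of the same livers was measured in a table of their own, with 6673 genes. Of these 4 (0.0599%) had an FDR under 0.05 at 198 mg/kg-d, namely Lpin1, Ugt2b35, Tmem140 and Sds. Lpin1 had FFPE levels of 9.11, 9.38 and 10.27 in vehicle and 6.54, 7.12 and 8.31 in treated libraries, which did not overlap, and changed by -2.29 ± 0.31 (FDR 0.000143). Ugt2b35, a glucuronosyltransferase, was higher in both tables, by 1.61 ± 0.23 in FFPE (FDR 0.000275) and by 0.56 ± 0.14 in FROZ (FDR 0.0429), whereas Tmem140 and the serine dehydratase Sds did not pass in FROZ (FDR 0.410 and 0.281). These 3 were chosen after their values were seen. FFPE changes were -1.81 ± 0.49 for Fkbp5 (FDR 0.161), -3.75 ± 1.00 for Hspa1a (FDR 0.161), -1.42 ± 0.51 for Bhlhe40 (FDR 0.287) and 1.38 ± 1.12 for Egr1 (FDR 0.648), with larger errors than in FROZ, and whether the 2 tables differ was not tested. C3 changed by -0.50 ± 0.18 in FFPE (FDR 0.297) and C4b by -0.08 ± 0.32 (FDR 0.931). Other complement and coagulation genes called in FROZ went both ways in FFPE, and none of those given here passed. Cfi (0.54 ± 0.45) and F9 (0.33 ± 0.35) lay above 0. Cfb (-0.08 ± 0.36), F12 (-0.38 ± 0.17), F5 (-0.74 ± 0.92) and Pros1 (-0.64 ± 0.92) lay below 0.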

How the data were processed

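TempO-Seq libraries of FROZ liver from 6 vehicle controls and 6 mice at 198 mg/kg-d were compared. The deposited values are log2(CPM + 1). The authors aligned reads to mm10 with STAR 2.6 in Partek, counted them on RefSeq genes by expectation maximization, removed genes with a low geometric mean, scaled to CPM per table and took log2 with an offset of 1, and they attenuated abundant probes in the assay. Values of a gene therefore need not be whole reads, although 96.8 to 97.4% of low values lay within 0.1 of a whole read. Reads on listed genes were taken as 1000000 divided by the CPM of 1 read.

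Changes were tested with limma 3.58.1 (R 4.3.3, variance trend) on the 24 FROZ libraries of all doses, which share 1 variance per gene (20 residual degrees of freedom). FDR was computed over all genes. The same was done for FFPE. Since the unit is log2, limma took the place of the study's software. Steps were tested on simulated data. The members, the 34 gene lists and the tests were chosen with earlier results of these data known. Genes were named if they were DEGs; if they were among the 8 largest increases or decreases without overlap of the groups; if they were Lpin1, Egr1, Hspa1a, Bhlhe40 or Fkbp5; or if they were called members of a list, or its smallest p where none was called. Other named genes were chosen after their values were seen. The values of 1 called gene that the rule takes are not reported here, although counts include it. Older symbols were matched (Cyr61, Ctgf, Ccrn4l and Gm129 as Ccn1, Ccn2, Noct and Ciart). Promoters came from RefSeq and shared windows from GENCODE vM21.

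Alternatives were other offsets (0.1 and 4 CPM), a minimum mean of 1 CPM, median-ratio scaling, a fit of the 2 groups only, no variance trend, array weights, a robust prior, and leaving out each animal. Leaving out animals 5 and 53 together was chosen after seeing the data. The scaling rests on relative shares, so a change in total RNA cannot be seen.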

Additional observations from a re-analysis of the deposited data

Results flagged for a closer look

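In 10 of 128 groups of 6 values, 1 animal lay far from the other 5 of its group, a gap that chance gives in about 1 in 20 groups. Among the vehicle controls, animal 8 had the highest Adh4 (9.63 against 9.19 for the next) and the lowest Gsta1 (1.00 against 1.78) and Lrtm1 (2.89 against 3.50), and animal 3 had the lowest Mrpl45 (6.78 against 6.96) and Sh3pxd2a (4.47 against 4.99), all as log2(CPM + 1). Among the treated animals, animal 49 had the lowest Mrps28 (5.05 against 5.23) and the highest Slc7a2 (8.83 against 8.43), animal 50 the lowest Itih1 (8.50 against 9.13), animal 52 the highest Herpud1 (8.58 against 8.07) and animal 53 the lowest Amy1 (6.98 against 7.38).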

How the results depend on the processing

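The number of DEGs (12) was 22 with an offset of 0.1 CPM and 6 with an offset of 4 CPM, ran from 7 to 15 when 1 animal was left out (lowest without treated animal 53), and was 6 without animals 5 and 53. The number of genes with an FDR under 0.05 (176) was 88 with the 2 groups only, 100 without a variance trend and 55 without animals 5 and 53, and ran from 51 (without 53) to 215 (without 51) with 1 animal left out. It was 54 without 52, 78 without 6, 81 without 4, 103 without 5 and 113 without 3. Higher genes (126) numbered 29 under median-ratio scaling, 53 with the 2 groups only, 67 without a trend and 36 without animals 5 and 53, with 32 to 166 over single animals. Lower genes (50) numbered 95 under median-ratio scaling, 33 without a trend and 19 without animals 5 and 53, with 18 to 52 over single animals. Of called list genes below 2-fold, C4b, Cfi, F5, F12, Apoc2, Lrp1, Lpin2, Mrps18b and Rps27l passed in all 21 alternatives. The fewest passes were those of F9 (8) and of Slc16a7, Mrps28 and Ndufs3 (9 each). Slc7a2 and Nr1h4 passed in 10, Foxo1 in 11, Trp53 and Pros1 in 13 and Aen in 14. None of the 64 genes named by the rule changed sign in these alternatives. Among the other named genes sign changes occurred near 0, as for Lpin3 (0.05) and Pdk3 (-0.01), which were -0.03 and 0.16 without animals 5 and 53, and for Lpin3 also under median-ratio scaling. The counts with fewer animals rest on fewer samples, and the cause of the other shifts was not tested. No paired analysis was possible because the vehicle and treated groups hold different animals that share no replicate number. Depth limits genes such as Egr1, with 1 read in a vehicle library.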

Other observations

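Among the 6 vehicle controls, several genes with a change below 0 at 198 mg/kg-d varied together. This was noticed after their values were seen and was not tested. Of the genes given, Pck1 (FDR 0.0825) and Tsc22d3 (FDR 0.262) did not pass at 198 mg/kg-d. Animals 3, 5 and 7 had Tk1 levels of 5.70, 5.15 and 5.47 against 4.04, 4.75 and 4.28 in animals 4, 6 and 8. St3gal5 was 7.81, 7.50 and 7.54 against 6.69, 6.94 and 7.00, and Slc7a2, the cationic amino acid carrier, 9.30, 9.18 and 9.12 against 8.95, 8.60 and 8.61. Pck1 was 10.31, 10.12 and 10.07 against 9.42, 9.50 and 9.16, and the glucocorticoid-induced Tsc22d3 9.78, 9.67 and 9.59 against 8.73, 9.04 and 8.48. Lpin1 did not show this split (8.27, 8.57 and 8.75 against 9.58, 8.92 and 8.62), nor did C3 (11.72, 11.81 and 11.83 against 11.75, 12.10 and 12.01).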
